A study of Mus musculus with 14 samples.

Results

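Tibias of ovariectomized mice given hippuric acid were compared with tibias of sham-operated mice by RNA sequencing. The comparison used 6 of the 14 libraries of the series, taken by their labels alone: 3 from ovariectomized mice given hippuric acid (OVX-HA) and 3 from mice after sham surgery (sham). The 3 libraries of ovariectomized mice given PBS (OVX-PBS) are set beside them. All mice were wild-type C57Bl/6 females. Hippuric acid or PBS was started 2 to 4 days after surgery and continued for 8 weeks, when the tibia was collected. The sources used here give neither the dose, the age of the mice, whether a library holds 1 animal or a pool, nor what the sham mice received. The p-values below therefore measure the spread between these libraries, which may be technical. None of the 5 groups analysed here combines sham surgery with hippuric acid, so surgery and compound cannot be told apart in OVX-HA against sham; OVX-PBS carries the surgery with the vehicle.

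Hippuric acid is benzoic acid joined to glycine; the liver and kidney make it from benzoate that gut microbes release from plant phenols, and the kidney excretes it through organic anion transporters. Ovariectomy removes the main source of estrogen. In mice the loss of estrogen is known to raise bone resorption by osteoclasts, to enlarge the pool of B cell precursors in bone marrow and to favour marrow fat. A whole tibia holds mineralized bone, growth plate cartilage, marrow blood cells, marrow fat and the periosteum, with adhering tendon and muscle. In such a bulk sample fewer cells of a type and less RNA per cell cannot be told apart.

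In units of 1e+06 estimated counts, the OVX-HA libraries held 31.3 to 35.4 and the sham libraries 29.2 to 32.6. Levels are given as CPM, the counts per 1e+06 counts of the library after TMM scaling. Markers of bone were abundant in all of them: Col1a1, the main collagen of bone, ran from 2045 to 4974 CPM in OVX-HA and from 2023 to 2511 CPM in sham. Several libraries also carried transcripts of tissues other than tibia. Mobp, a myelin gene of the brain and spinal cord, had 507, 1.17 and 486 CPM in the OVX-HA libraries, in the order of their replicate numbers, against 490, 507 and 223 CPM in sham. OVX-HA replicate 2 thus nearly lacked it, and the 24 central nervous system markers summed to 1437 CPM there, against 3756 to 7894 CPM in the other 5 OVX-HA and sham libraries. OVX-PBS replicate 1 was also low, with a sum of 1163 CPM, against 4493 and 5218 CPM in OVX-PBS replicates 2 and 3. Both low libraries were left out where only libraries that carry central nervous system transcripts were used. Sham replicate 1 carried transcripts of the adrenal cortex, and sham replicate 3 a small amount: Hsd3b1, a steroid-making enzyme, stood at 0.0274, 0.146 and 0.426 CPM in OVX-HA, against 566, 0.225 and 3.21 CPM in sham. An adrenal list of 8 genes, chosen after these values were seen, summed to 5.91 to 9.28 CPM in OVX-HA, against 2051, 7.83 and 17.4 CPM in sham. Sham replicate 3 carried lymph node transcripts, with Glycam1 at no more than 0.498 CPM in OVX-HA, against 0.129, 0.394 and 32.5 CPM in sham. The liver gene Alb was at 0.426 to 0.966 CPM in OVX-HA, against 13.4, 13.3 and 0.829 CPM in sham.

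**Figure D1:**
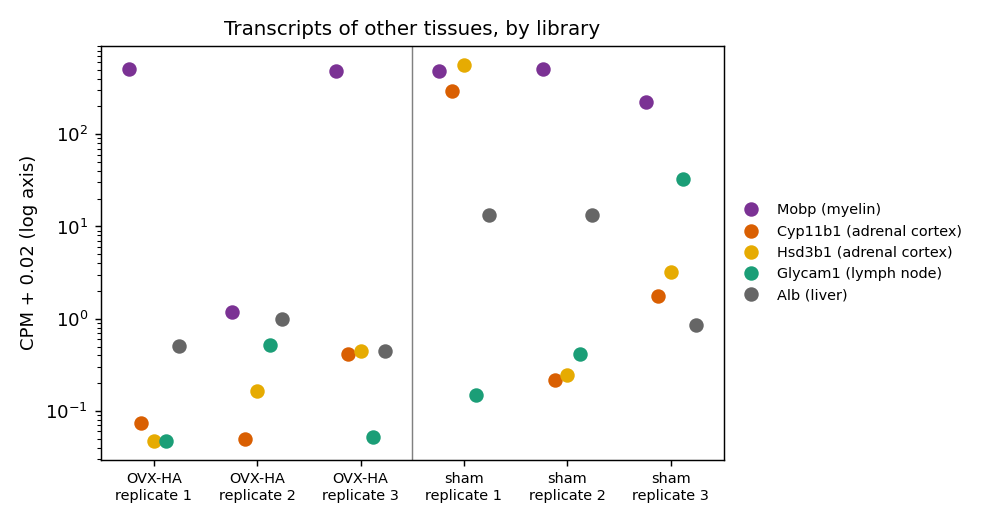
Transcripts of other tissues in the 3 OVX-HA libraries (left) and the 3 sham libraries (right). Each point is 1 library; the vertical axis is CPM on a log scale, with a small constant added so that 0 can be drawn. Mobp drops to 1.17 CPM in OVX-HA replicate 2, and Hsd3b1 and Cyp11b1 reach 566 and 293 CPM in sham replicate 1.

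No gene passed the adjusted threshold in OVX-HA against sham. Of 21761 genes tested with the edgeR quasi-likelihood test, 0 had a Benjamini-Hochberg adjusted p below 0.05, and the smallest adjusted p was 1. DESeq2 also called 0. At an unadjusted p below 0.05 edgeR gave 378 genes (1.74% of those tested), of which 171 were higher (0.786%) and 207 lower (0.951%) in OVX-HA, and DESeq2 gave 471. The libraries of the groups did not overlap for 524 genes with OVX-HA higher (2.41%) and for 424 genes with OVX-HA lower (1.95%). The share at an unadjusted p below 0.05 is under the threshold itself, so the genes below are described by their values, and none of them is called changed. They are the genes with the smallest p in each direction whose libraries do not overlap, the leading members of lists of cell types and pathways, and some further list members picked after their values were seen. The median log2 fold change of all genes was 0.01, and 51.7% of genes lay above 0. Among the 207 lower genes, 22 stood at least 5-fold higher in sham replicate 1 than in both other sham libraries, 1 did so in sham replicate 2 and 5 in sham replicate 3. Among the 171 higher genes only 1 stood out in this way, in OVX-HA replicate 2.

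Among the gene lists, that of the B cell lineage had the most members higher at an unadjusted p below 0.05, and they included genes of B cell precursors in the marrow. Of 24 genes of the B cell lineage, 7 were higher in OVX-HA at an unadjusted p below 0.05 (0.786% of all genes were) and 0 lower, and the list's median log2 fold change was 0.49, against 0.01 for all genes. The 7 were Vpreb1, Vpreb2, Igll1, Vpreb3, Dntt, Ebf1 and Pax5. Rag1, Rag2, Il7r and Blnk, also in the list, were not among them. In mice Vpreb1, Vpreb2 and Igll1 encode the surrogate light chain, the stand-in that pairs with a newly made heavy chain in the pre-B cell receptor. Vpreb1 and Vpreb2 are near copies of each other, and their start regions are shown to set the copies side by side. The windows below run from 250 bases before to 50 after each gene's start (RefSeq, GRCm38.p6): chr16:16869206-16869505 on the minus strand for Vpreb1 and chr16:17980315-17980614 on the plus strand for Vpreb2. GENCODE M21 (mm10) has both genes on the same strands but with other starts. It places Vpreb1 at chr16:16868403-16870843, so the Vpreb1 window lies inside that gene, and Vpreb2 at chr16:17980428-17981273. Capitals mark bases that are identical in the stretch the windows share.
Vpreb1: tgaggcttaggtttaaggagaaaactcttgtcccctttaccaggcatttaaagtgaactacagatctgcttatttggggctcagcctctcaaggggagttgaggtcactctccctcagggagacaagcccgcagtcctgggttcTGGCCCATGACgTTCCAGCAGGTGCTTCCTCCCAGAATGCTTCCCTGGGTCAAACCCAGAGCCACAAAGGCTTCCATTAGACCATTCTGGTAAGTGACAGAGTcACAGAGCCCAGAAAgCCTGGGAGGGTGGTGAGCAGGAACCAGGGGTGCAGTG
Vpreb2: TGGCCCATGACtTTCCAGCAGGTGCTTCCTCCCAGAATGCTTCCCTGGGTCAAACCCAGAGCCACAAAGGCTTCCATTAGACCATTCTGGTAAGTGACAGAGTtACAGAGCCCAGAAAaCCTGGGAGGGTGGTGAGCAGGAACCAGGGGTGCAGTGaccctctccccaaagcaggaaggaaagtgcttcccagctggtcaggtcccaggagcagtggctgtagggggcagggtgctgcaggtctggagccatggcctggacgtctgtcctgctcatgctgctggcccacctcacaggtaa
The shared stretch is 156 bases long, with 153 identical (98.1%), and lies at bases 145 to 300 of the Vpreb1 window and at bases 1 to 156 of the Vpreb2 window. In the Vpreb2 window all of it lies before the RefSeq start, but the GENCODE M21 start of Vpreb2 falls inside it. Whether the stretch bears on reads of Vpreb2 therefore depends on the annotation used for counting. The GENCODE M21 transcripts match at 739 of 759 aligned bases (97.4%), so how the authors' counting divided reads between the copies is uncertain.

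Vpreb1 stood at 3.58, 8.14 and 5.18 CPM in OVX-HA and at 4.69, 5.57 and 6.74 CPM in OVX-PBS, against 1.39, 2.73 and 2.09 CPM in sham. Every OVX-HA and OVX-PBS library lay above every sham library. OVX-HA over sham gave a log2 fold change of 1.44 ± 0.388 (SE; unadjusted p = 0.00293 in the edgeR quasi-likelihood fit across all genes). OVX-PBS over sham gave 1.45. Vpreb2, the copy, was at 0.383, 1.05 and 0.492 CPM in OVX-HA and 0.457, 1.07 and 0.64 CPM in OVX-PBS, against 0.0645, 0.197 and 0.108 CPM in sham. These are 14, 36 and 15 counts in OVX-HA, against 2, 7 and 3 counts in sham, so the sham level rests on few reads. Igll1, the lambda-5 part of the surrogate light chain, lies on the same chromosome at chr16:16860671-16863985 (mm10), next to Vpreb1. It reached 5.17, 10.4 and 6.29 CPM in OVX-HA and 4.63, 6.94 and 7.94 CPM in OVX-PBS, against 2.26, 3.15 and 2.7 CPM in sham. The groups again did not overlap, and the log2 fold change over sham was 1.43 ± 0.399 in OVX-HA (unadjusted p = 0.00377, edgeR).

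Vpreb3, Dntt and Ebf1, also among the 7 members at an unadjusted p below 0.05, stood in the same order. Vpreb3, expressed in B cell precursors, was at 10.6, 21.5 and 13.2 CPM in OVX-HA and 11.3, 15.5 and 19.1 CPM in OVX-PBS, against 4.9, 10.4 and 7.39 CPM in sham. Dntt, which adds untemplated bases while heavy chain genes are joined, was at 4.68, 9.45 and 5.93 CPM in OVX-HA and 3.83, 6.85 and 9.33 CPM in OVX-PBS, against 2.1, 3.77 and 2.99 CPM in sham. For both genes the lowest OVX-HA library lay just above the highest sham library. Ebf1, a transcription factor of early B cells that fat and stromal cells also express, was at 58.2, 65.1 and 51.9 CPM in OVX-HA and 52.7, 47.2 and 53.5 CPM in OVX-PBS, against 40.1, 46.6 and 44.2 CPM in sham. Its log2 fold change over sham was 0.42 ± 0.115 in OVX-HA (unadjusted p = 0.00328, edgeR) and 0.23 in OVX-PBS. Bcl7a, a chromatin remodelling subunit first found in B cell lymphoma, is in no list here and stood at 52.3, 63 and 54.5 CPM in OVX-HA and 53.2, 52.8 and 62.2 CPM in OVX-PBS, against 37.7, 48.3 and 41.4 CPM in sham.

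Of 3 further B cell genes, Ms4a1 and Ighm overlapped between the groups and Jchain did not. Ms4a1 (CD20), a marker of mature B cells, was at 13.2, 15.3 and 15.1 CPM in OVX-HA, against 8.06, 16.1 and 18.9 CPM in sham. Ighm, the mu heavy chain, made in B cell precursors as well as later B cells, was at 298, 398 and 369 CPM in OVX-HA, against 457, 335 and 403 CPM in sham. Jchain, made by plasma cells, was at 35.2, 49 and 39.1 CPM in OVX-HA, against 64, 51 and 53.7 CPM in sham, and was the only member of the list whose groups did not overlap in the other direction. Within OVX-HA, replicate 2 was the highest library for Vpreb1, Vpreb2, Igll1, Vpreb3, Dntt, Ebf1 and Pax5; within sham, replicate 1 was the lowest for all 7. Without OVX-HA replicate 2, 4 of 24 members were at p below 0.05 and the median was 0.26. Without sham replicate 1, 4 were and the median was 0.33. In those fits 780 of 21612 and 351 of 21608 genes were, in either direction. Without both libraries, an alternative added after the data were seen, 1 member was left at p below 0.05 and the median was 0.03. In that fit 1703 of 21437 genes were at p below 0.05. Vpreb1 kept log2 fold changes of 1.06 and 1.22 without either library.

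**Figure D2:**
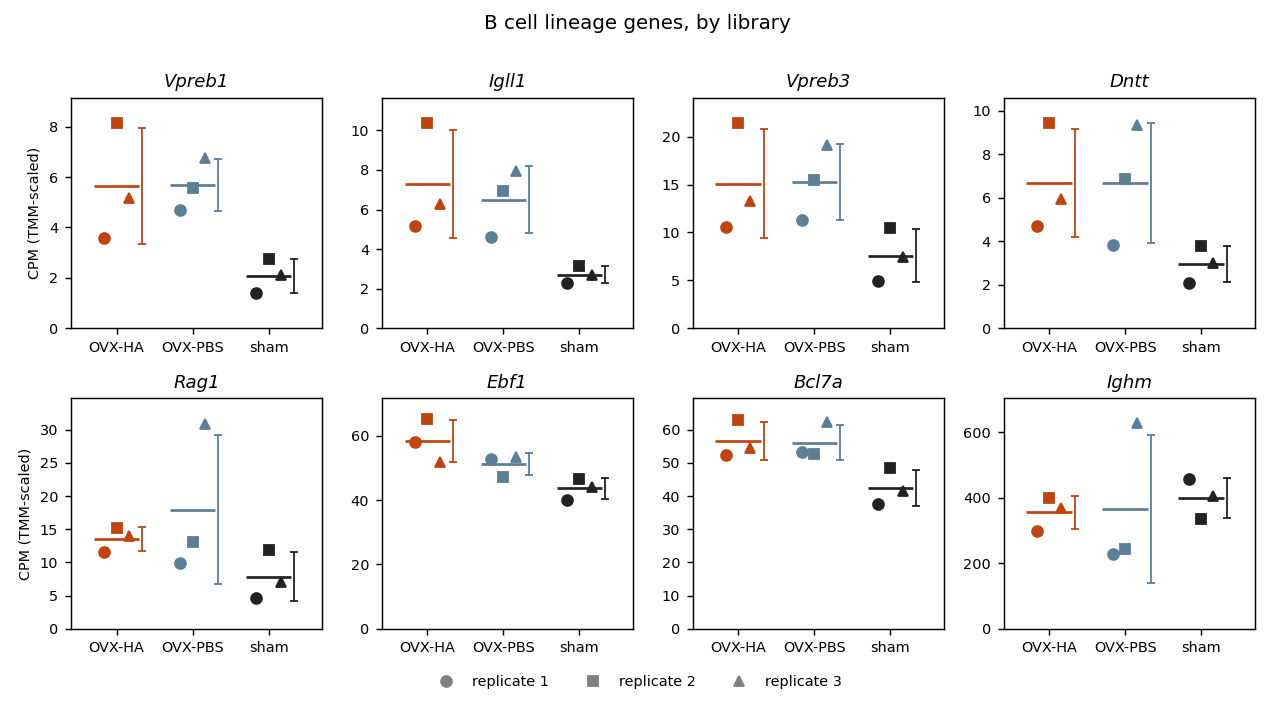
CPM of 8 genes in OVX-HA, OVX-PBS and sham tibia. They are Vpreb1, Igll1, Vpreb3, Dntt, Rag1, Ebf1 and Ighm of the B cell lineage list and Bcl7a, which is in no list. Each marker is 1 library, the line is the mean of 3 and the bar 1 SD. For Vpreb1, Igll1, Vpreb3 and Dntt all OVX-HA libraries lie above all sham libraries, while Ighm overlaps.

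The genes of tendon and periosteum, the fibrous sheath of bone, formed the other list with several members higher. All 19 lay above 0 in OVX-HA against sham, 4 of them at an unadjusted p below 0.05 (0.786% of all genes were), 9 had groups that did not overlap (2.41% of all genes did so with OVX-HA higher), and the median log2 fold change was 0.33. Col14a1, a collagen that binds to fibril surfaces in tendon and skin and lies at chr15:55307750-55520803 (mm10), had the smallest p among the higher genes named. It was at 42.4, 40.5 and 40.1 CPM in OVX-HA and 51.3, 41.7 and 38.7 CPM in OVX-PBS, against 27.1, 24.5 and 31.8 CPM in sham. The 3 OVX-HA libraries lay within a narrow band above all sham libraries, with a log2 fold change of 0.56 ± 0.125 (95% interval 0.29 to 0.83; unadjusted p = 0.000731, edgeR). The log2 fold change of OVX-PBS over sham was 0.66 for the same gene.

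Aspn, a small proteoglycan that binds collagen, was at 67.3, 70.7 and 51.8 CPM in OVX-HA and 76.6, 55.6 and 53.1 CPM in OVX-PBS, against 40.9, 43.5 and 48.9 CPM in sham. Kera, a proteoglycan of tendon and cornea, was at 6.35, 7.99 and 10.8 CPM in OVX-HA and 16.8, 9.44 and 7.17 CPM in OVX-PBS, against 5.55, 3.72 and 5.59 CPM in sham. Neither gene overlapped between OVX-HA and sham. Tnmd, a membrane protein of tendon cells, was at 6.92, 13.3 and 12.6 CPM in OVX-HA and 13.3, 9.41 and 11.9 CPM in OVX-PBS, against 6.64, 7.04 and 6.63 CPM in sham. OVX-HA replicate 1 lay inside the sham range, and the log2 fold change was 0.69 ± 0.215 (unadjusted p = 0.00748, edgeR). Scx, the transcription factor that marks tendon progenitors, was at 8.05, 8.28 and 8.26 CPM in OVX-HA, against 7.9, 7.35 and 8.18 CPM in sham, with OVX-HA replicate 1 inside the sham range. The summed level of the list was 2661 to 3431 CPM in OVX-HA and 2631 to 3480 CPM in OVX-PBS, against 2111 to 2685 CPM in sham. Without OVX-HA replicate 2 the median was 0.17, with 5 of 19 members at p below 0.05. Without that library and sham replicate 1 it was 0.13, with 2. In those fits 780 of 21612 and 1703 of 21437 genes were at p below 0.05, in either direction. The skeletal muscle list, tissue that adheres to the same surfaces, summed to 70930 to 113451 CPM in OVX-HA, against 56264 to 106995 CPM in sham, and its part in the tendon values was not tested.

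Of 22 collagen and matrix processing genes 2 were higher at an unadjusted p below 0.05 (0.786% of all genes were). Pcolce2, which speeds the trimming of procollagen, was at 19.5, 28.1 and 16.7 CPM in OVX-HA and 21.3, 17.6 and 14.2 CPM in OVX-PBS, against 12.5, 13.5 and 16.5 CPM in sham. Serpinh1, the collagen chaperone HSP47, was at 181, 273 and 168 CPM in OVX-HA and 277, 201 and 201 CPM in OVX-PBS, against 142, 143 and 176 CPM in sham. Within OVX-HA both were highest in replicate 2, and without that library 0 of the 22 were at p below 0.05.

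Genes of bone formation were higher on average in OVX-HA and in OVX-PBS than in sham, and 1 library carried the OVX-HA average. Of 20 osteoblast genes 1 was higher in OVX-HA at an unadjusted p below 0.05 (0.786% of all genes were) and 0 lower. It was Bmp3, a bone morphogenetic protein. In OVX-HA against sham 18 of the 20 lay above 0, and the median log2 fold change was 0.30, against 0.35 in OVX-PBS over sham. Bglap, which encodes osteocalcin, the hormone-like protein of mature osteoblasts, was at 158, 361 and 129 CPM in OVX-HA and 202, 183 and 193 CPM in OVX-PBS, against 140, 163 and 132 CPM in sham. Col1a1 was at 2431, 4974 and 2045 CPM in OVX-HA and 3127, 2494 and 3512 CPM in OVX-PBS, against 2023, 2511 and 2103 CPM in sham. In both genes OVX-HA replicate 2 was far above every other library, and the other 2 OVX-HA libraries lay among or close to the sham libraries. Bglap has a near copy beside it, so reads may be divided between the copies. The log2 fold change over sham was 0.57 ± 0.294 for Bglap and 0.51 ± 0.313 for Col1a1 (unadjusted p = 0.074 and 0.129, edgeR). Without OVX-HA replicate 2 these values were -0.03 and -0.00, and the osteoblast median was -0.05. There 4 of 20 members were lower at p below 0.05, in a fit where 598 of 21612 genes were. Without OVX-HA replicate 3 the median was 0.53 and 8 were higher, in a fit where 399 of 21642 genes were. The direction of the osteoblast list thus rested on which OVX-HA library was kept. Alpl, the phosphatase that frees phosphate for mineral, was at 48.6, 77.9 and 40.5 CPM in OVX-HA, against 45.4, 50.7 and 50.8 CPM in sham.

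Of the OVX-HA libraries, replicate 2 also had the highest mean log2 level of the osteocyte list and the highest Sost and Wif1. It was also the highest OVX-HA library for the Wnt list, with a mean log2 level of 3.57, against 3.49 and 3.32 in replicates 1 and 3. Against sham the median log2 fold change of the 28 Wnt genes was 0.01. With only the libraries that carry central nervous system transcripts that median was -0.04. Sost, which encodes the Wnt inhibitor sclerostin of osteocytes, was at 5.04, 14.5 and 4.06 CPM in OVX-HA and 8.75, 4.6 and 7.52 CPM in OVX-PBS, against 6.71, 8.17 and 8.4 CPM in sham. Its log2 fold change was 0.02 ± 0.46 with all libraries and -0.79 without OVX-HA replicate 2. Wif1, another secreted Wnt inhibitor, was at 29.6, 47.1 and 20.7 CPM in OVX-HA, against 19.7, 23.1 and 21.5 CPM in sham. Wnt4, a ligand of the pathway, was at 11.7, 9.54 and 11 CPM in OVX-HA, against 28.5, 10.9 and 13.5 CPM in sham. Only sham replicate 1, the library with adrenal transcripts, was high, and without it the log2 fold change of Wnt4 was -0.18 in place of -0.71. Cartilage genes had the largest median of all lists, 0.63, against 0.55 in OVX-PBS over sham. All 18 lay above 0 in OVX-HA, yet 1 of 18 was higher at an unadjusted p below 0.05 (0.786% of all genes were). It was Epyc, a proteoglycan of the growth plate. The growth plate core protein gene Acan was at 37, 98.4 and 33.1 CPM in OVX-HA, against 25.6, 33.5 and 51.2 CPM in sham, and the list's median without OVX-HA replicate 2 was 0.05.

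Most genes of bone resorption lay below 0 in OVX-HA against sham, none of them at an unadjusted p below 0.05 with edgeR. Of 20 osteoclast genes 15 lay below 0, and the median log2 fold change was -0.14. The groups did not overlap for 1 of the 20, Siglec15, a receptor of the osteoclast lineage, with OVX-HA lower (1.95% of all genes were). It was at 0.52, 0.351 and 0.361 CPM in OVX-HA, against 0.839, 0.873 and 0.577 CPM in sham, and its log2 fold change was -0.89 ± 0.419 (unadjusted p = 0.056, edgeR). Ctsk, the protease that digests bone collagen, was at 131, 251 and 114 CPM in OVX-HA and 186, 176 and 180 CPM in OVX-PBS, against 177, 226 and 140 CPM in sham. Acp5, the acid phosphatase TRAP, was at 206, 364 and 163 CPM in OVX-HA and 272, 254 and 276 CPM in OVX-PBS, against 273, 316 and 234 CPM in sham. In OVX-HA replicates 1 and 3 both genes lay below all sham libraries, and in replicate 2 above them. The log2 fold changes were -0.13 ± 0.286 for Ctsk (95% interval -0.75 to 0.49) and -0.17 ± 0.284 for Acp5 (-0.79 to 0.45). Without OVX-HA replicate 2 they were -0.58 and -0.59 (unadjusted p = 0.0299 and 0.0363, edgeR), and the osteoclast median was -0.37. In that fit 3 of 20 osteoclast genes were lower at p below 0.05, where 598 of 21612 genes were.

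None of the 8 genes of the signals that drive osteoclast formation was at an unadjusted p below 0.05 with edgeR. The groups did not overlap for 1 of them, Csf1, with OVX-HA lower (1.95% of all genes were). Tnfsf11, which encodes the osteoclast-inducing cytokine RANKL, was at 1.12, 3.13 and 1.28 CPM in OVX-HA and 2.12, 1.55 and 1.65 CPM in OVX-PBS, against 1.55, 2.08 and 2.09 CPM in sham. Its decoy receptor osteoprotegerin, Tnfrsf11b, was at 6.57, 12.4 and 5.44 CPM in OVX-HA and 7.03, 6.15 and 6.58 CPM in OVX-PBS, against 5.71, 5.86 and 7.43 CPM in sham. Ligand and decoy were both highest in OVX-HA replicate 2. Csf1, the growth factor of the macrophage lineage, was at 43.8, 42.5 and 43.7 CPM in OVX-HA, against 45.5, 46.2 and 44.7 CPM in sham. These groups did not overlap, but its log2 fold change was -0.07 ± 0.0953 (95% interval -0.28 to 0.14).

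**Figure D3:**
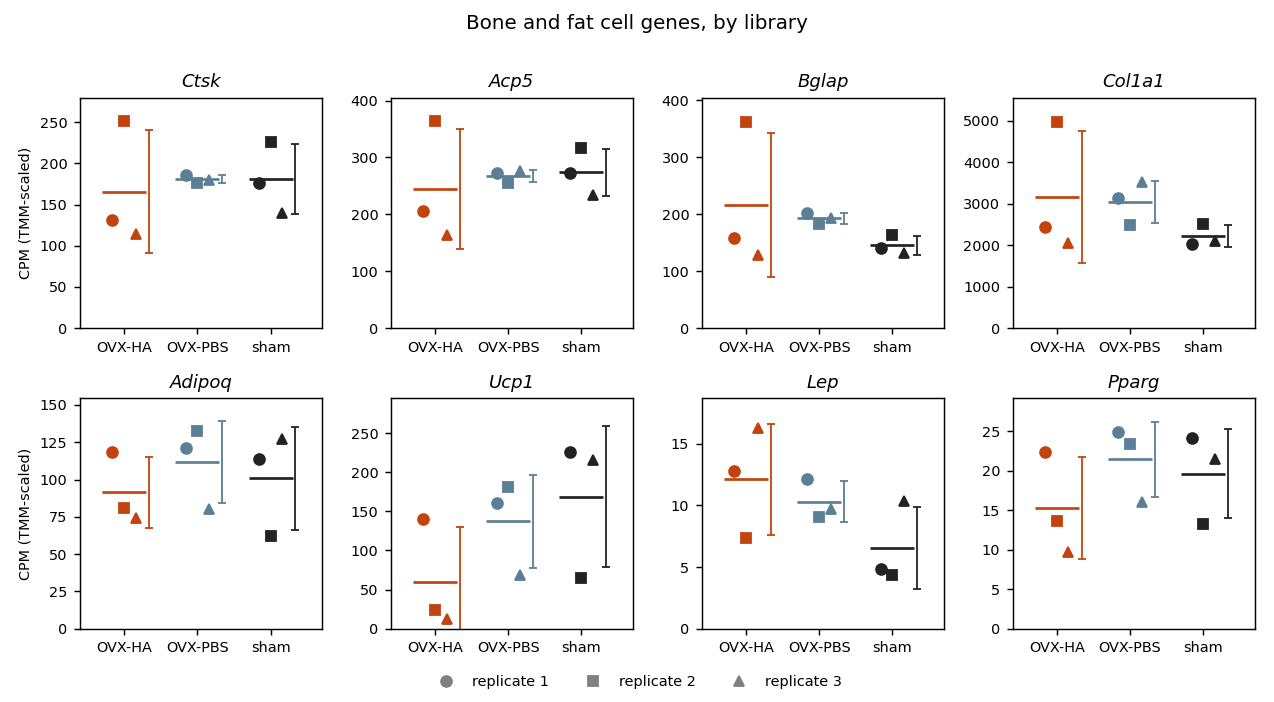
CPM of 4 bone genes (top row) and 4 fat genes (bottom row) in OVX-HA, OVX-PBS and sham tibia; each marker is 1 library, the line is the mean of 3 and the bar 1 SD. OVX-HA replicate 2 is the highest library for Ctsk, Acp5, Bglap and Col1a1, and Ucp1 runs from 12.5 to 141 CPM in OVX-HA, against 64.6 to 226 CPM in sham.

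Fat cell genes mostly lay below sham, with wide spread in both groups. Of 24 adipocyte genes 22 lay below 0. At an unadjusted p below 0.05, 0 were lower and 1 was higher (0.951% and 0.786% of all genes were). The median log2 fold change was -0.35 in OVX-HA against sham and 0.07 in OVX-PBS against sham. Adipoq, which encodes adiponectin, was at 119, 80.9 and 74.4 CPM in OVX-HA and 121, 133 and 80.4 CPM in OVX-PBS, against 113, 62 and 127 CPM in sham. Plin1, the coat protein of lipid droplets, was at 130.1, 71.4 and 60.4 CPM in OVX-HA and 144, 119 and 74.1 CPM in OVX-PBS, against 122, 61.2 and 155 CPM in sham. Pparg, the master transcription factor of fat cells, was at 22.3, 13.7 and 9.77 CPM in OVX-HA and 24.9, 23.3 and 16.1 CPM in OVX-PBS, against 24.1, 13.3 and 21.4 CPM in sham. In each gene OVX-HA replicate 1 and sham replicates 1 and 3 were on the high side, and OVX-HA replicates 2 and 3 and sham replicate 2 on the low side. The log2 fold change of Pparg was -0.36 ± 0.292 (95% interval -0.996 to 0.28). Leaving out OVX-HA replicate 1 gave 9 lower adipocyte genes at p below 0.05 and a median of -0.74, in a fit where 424 of 21656 genes were lower. Leaving out sham replicate 3 gave 0 lower and -0.08.

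Lep was 1 of the 2 adipocyte genes above 0. Lep, the satiety hormone made by fat cells, was at 12.8, 7.35 and 16.3 CPM in OVX-HA and 12.2, 9.04 and 9.7 CPM in OVX-PBS, against 4.84, 4.39 and 10.4 CPM in sham. Sham replicate 3 lay above OVX-HA replicate 2, so the groups overlap, and the log2 fold change was 0.89 ± 0.351 (unadjusted p = 0.0254, edgeR). Of 14 brown fat genes 2 were lower at an unadjusted p below 0.05 (0.951% of all genes were): Elovl3, which lengthens fatty acids, and Dio2. That count was 7 without OVX-HA replicate 1 and 5 without sham replicate 2, where 424 of 21656 and 419 of 21566 genes were lower. It was 0 without any 1 of the other 4 libraries or with the compared groups fitted alone. Dio2, which activates thyroid hormone, was at 12.9, 11.2 and 11 CPM in OVX-HA and 18.6, 16.7 and 14.8 CPM in OVX-PBS, against 17.2, 12.3 and 19.4 CPM in sham. Ucp1, the uncoupling protein that defines brown fat, was at 141, 24.2 and 12.5 CPM in OVX-HA and 161, 182 and 69.3 CPM in OVX-PBS, against 226, 64.6 and 215 CPM in sham. It varied more than 10-fold among the OVX-HA libraries, and the brown fat list summed to 822, 415 and 458 CPM in OVX-HA, against 913, 472 and 926 CPM in sham. The part of brown fat in the fat cell values was not tested.

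Angptl8 and Pdk4, genes of fuel use that follow feeding and fasting, had lower means in OVX-HA than in both other groups. Angptl8, a secreted regulator of lipoprotein lipase made in fat and liver (chr9:21835510-21837347, mm10), was at 1.48, 0.995 and 0.852 CPM in OVX-HA and 3.32, 2.65 and 1.39 CPM in OVX-PBS, against 4.29, 2 and 4.36 CPM in sham. All OVX-HA libraries lay below all sham libraries, with a log2 fold change of -1.67 ± 0.391 (unadjusted p = 0.00108, edgeR). The difference from OVX-PBS was -1.12 (95% interval -1.98 to -0.26; unadjusted p = 0.0145, edgeR), with 1 OVX-PBS library inside the OVX-HA range. In the same comparison 23 of 24 adipocyte genes lay below 0 with a median of -0.43, and 12 of 14 brown fat genes did with a median of -0.40, 2 of them lower at p below 0.05 (0.823% of all genes were). The part of these fat cell values in the Angptl8 and Pdk4 values was not tested. Pdk4, the kinase that turns cells from glucose to fatty acid burning, was at 325, 179 and 179.7 CPM in OVX-HA and 605, 367 and 401 CPM in OVX-PBS, against 532, 262 and 567 CPM in sham. Sham replicate 2 lay between the OVX-HA libraries, whereas all OVX-PBS libraries lay above them. For Pdk4 the log2 fold change was -0.99 ± 0.334 over sham and -1.005 over OVX-PBS (unadjusted p = 0.0115 and 0.0108, edgeR). Gk, glycerol kinase, was at 16.7, 11.9 and 13.8 CPM in OVX-HA, against 19.8, 20.2 and 19.4 CPM in sham. OVX-HA against OVX-PBS reuses the OVX-HA libraries by which Angptl8 and Pdk4 were named. It had 0 genes past the adjusted threshold of 21761 with edgeR (0 with DESeq2), so neither gene passes there. At an unadjusted p below 0.05 it had 319 (1.47%), 140 higher and 179 lower; with RLE size factors in place of TMM these were 184 higher and 136 lower, and DESeq2 gave 364. Its libraries did not overlap for 2.24% of genes with OVX-HA higher and 1.83% with OVX-HA lower.

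Il4ra, the receptor subunit through which interleukins 4 and 13 act on macrophages and lymphocytes, had the smallest p among the lower genes named outside the liver list (chr7:125552120-125579474, mm10). It was at 19.2, 20.9 and 16.2 CPM in OVX-HA and 20.9, 21.5 and 25.1 CPM in OVX-PBS, against 35.2, 35.8 and 28.9 CPM in sham. Every OVX-HA and OVX-PBS library lay below every sham library. In OVX-HA the log2 fold change over sham was -0.83 ± 0.189 (95% interval -1.24 to -0.42; unadjusted p = 0.000899, edgeR), and in OVX-PBS it was -0.57. It ran from -0.78 to -0.93 when OVX-HA replicate 2, sham replicate 1 or sham replicate 3 was left out.

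Lrg1, a secreted glycoprotein of neutrophils and vessels (chr17:56119678-56122001, mm10), was at 21.3, 21.6 and 16.8 CPM in OVX-HA and 31.4, 36.8 and 30.8 CPM in OVX-PBS, against 27.3, 52.9 and 31.5 CPM in sham. The OVX-HA libraries lay below all OVX-PBS and all sham libraries, while OVX-PBS overlapped sham. Lrg1 in OVX-HA gave a log2 fold change of -0.90 ± 0.249 over sham and -0.73 over OVX-PBS (95% interval -1.27 to -0.19; unadjusted p = 0.00339 and 0.0124, edgeR). The neutrophil list, whose cells make Lrg1, had 20 of 21 members below 0, 0 at p below 0.05 and a median of -0.34, and its summed level was 3078 to 5434 CPM in OVX-HA, against 3689, 7432 and 3260.4 CPM in sham. Without sham replicate 2 the neutrophil median was 0.12, and Lrg1 was at -0.59 (unadjusted p = 0.0252, edgeR).

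Fkbp5, the co-chaperone that glucocorticoids induce through their receptor (chr17:28399094-28517527, mm10), was at 26.8, 24.4 and 22.6 CPM in OVX-HA and 30.7, 22.4 and 26.1 CPM in OVX-PBS, against 31.8, 47.7 and 36.3 CPM in sham. All OVX-HA and OVX-PBS libraries lay below all sham libraries. Fkbp5 gave a log2 fold change over sham of -0.65 ± 0.157 in OVX-HA and -0.55 in OVX-PBS (unadjusted p = 0.00136 and 0.0043, edgeR). Sham replicate 1, which held adrenal transcripts, had the lowest Fkbp5 of the sham libraries, and without it the value was -0.77. Tsc22d3 (GILZ), another textbook glucocorticoid target, lay on the other side: 126, 126 and 142 CPM in OVX-HA and 146, 142 and 128 CPM in OVX-PBS, against 94.9, 109 and 116 CPM in sham. Of 18 glucocorticoid targets 2 were lower at an unadjusted p below 0.05 (Fkbp5 and Pdk4; 0.951% of all genes were) and 0 higher (0.786%), with a median of -0.22, 7 members above 0 and 11 below. Without sham replicate 3 the list had 4 higher and 3 lower (228 and 256 of 21736 genes were). Without OVX-HA replicate 1 it had 4 lower (424 of 21656 were), and with the replicate block 2 higher and 2 lower (160 and 222 of 21761 were). Its median was -0.006 without OVX-HA replicate 2, -0.06 without sham replicate 1 and -0.09 without sham replicate 2.

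**Figure D4:**
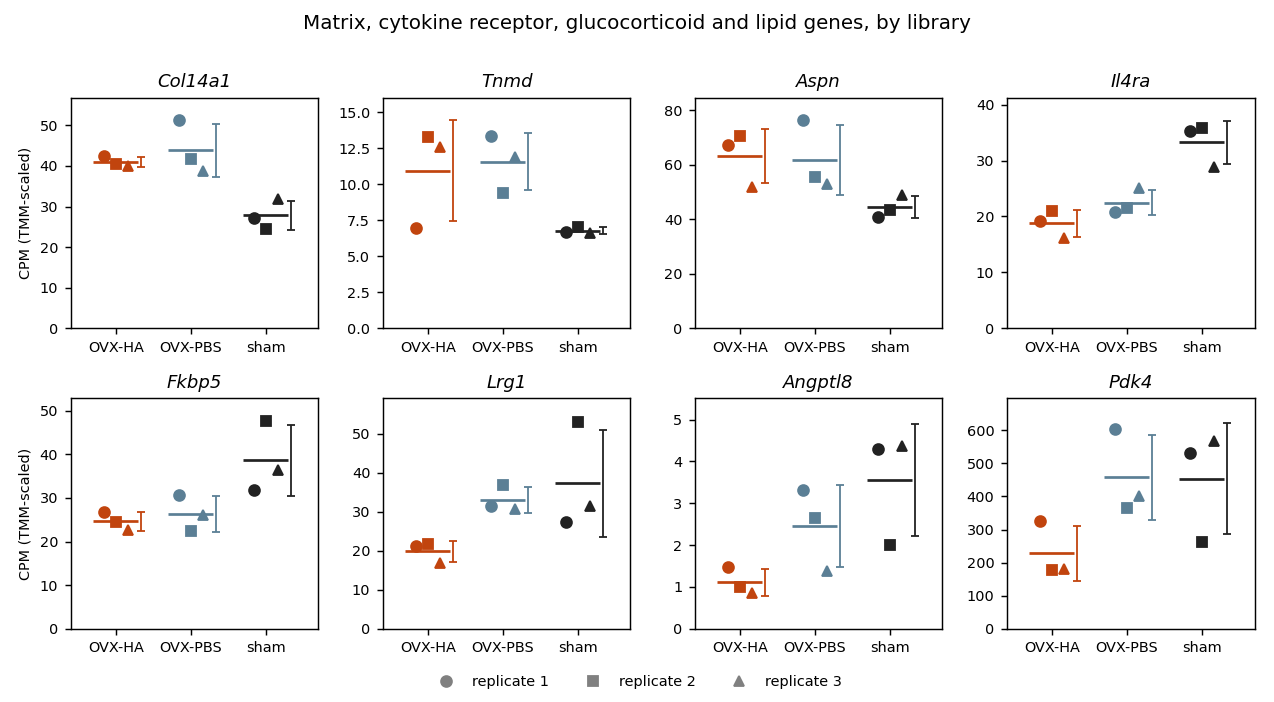
CPM of 8 genes in OVX-HA, OVX-PBS and sham tibia; each marker is 1 library, the line is the mean of 3 and the bar 1 SD. Col14a1 is higher and Il4ra and Fkbp5 lower in OVX-HA and OVX-PBS than in sham, and Lrg1 is lower in OVX-HA (16.8 to 21.6 CPM) than in OVX-PBS (30.8 to 36.8 CPM).

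Genes that answer to estrogen gave 1 lower member. Greb1, a coactivator that the estrogen receptor induces, was at 1.78, 1.38 and 1.28 CPM in OVX-HA and 1.6, 1.46 and 1.65 CPM in OVX-PBS, against 7.26, 2.76 and 1.95 CPM in sham. The groups did not overlap, but sham replicate 1 was far above the other sham libraries. Greb1 had a log2 fold change of -1.43 ± 0.404 with all libraries and -0.67 without sham replicate 1 (unadjusted p = 0.00409 and 0.029, edgeR). Esr1, the receptor itself, was at 22.5, 18.3 and 24 CPM in OVX-HA and 28.8, 25.2 and 23.6 CPM in OVX-PBS, against 20.1, 15.3 and 22.5 CPM in sham. Of 16 sex steroid and estrogen-regulated genes tested 1 was lower and 0 higher at an unadjusted p below 0.05 (0.951% and 0.786% of all genes were).

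Of 20 circadian genes 2 were higher at an unadjusted p below 0.05 (0.786% of all genes were), Per2 and Per3, both repressors in the clock's feedback loop, and the median was 0.12. Per3 was at 36.8, 28 and 33.6 CPM in OVX-HA and 30.9, 34.5 and 26.9 CPM in OVX-PBS, against 26.6, 26.7 and 27.3 CPM in sham. The 3 OVX-HA libraries lay above the tight sham group. Nr1d2 (REV-ERB beta), a nuclear receptor of the clock, was at 105, 68.5 and 121 CPM in OVX-HA, against 83, 67.9 and 81.5 CPM in sham, and OVX-HA replicate 2 was level with the lowest sham library. Without that library 6 of 20 clock genes were higher at p below 0.05, with a median of 0.23, in a fit where 182 of 21612 genes were. Without OVX-HA replicate 1 it was 0 with a median of 0.04, without any 1 of the other 4 libraries it was 1, and with the compared groups fitted alone it was 0. The sources used here do not give the time of day of collection, and its part in these values was not tested. Fosb, an immediate early gene, was the 1 of 22 genes of its class higher at p below 0.05 (0.786% of all genes were). It was at 2.79, 3.1 and 3.02 CPM in OVX-HA and 3.54, 3.32 and 2.8 CPM in OVX-PBS, against 1.45, 1.72 and 2.34 CPM in sham.

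Genes that make or carry hippuric acid, and receptors of small carboxylic acids, lay within the spread of the libraries. Of 22 genes of hippurate formation and organic acid transport 16 were tested and 0 were at an unadjusted p below 0.05. Glyat, the enzyme that joins benzoate to glycine, was at 0.176 to 0.876 CPM in OVX-HA, against 0.216 to 0.704 CPM in sham. Slc22a6 (OAT1), the renal transporter of hippurate, was at 1.31 to 2.3 CPM in OVX-HA, against 1.33 to 2.08 CPM in sham. The carboxylic acid receptors, which bind small acids such as niacin, lactate and fatty acids, had 8 of 10 members tested and 0 at p below 0.05. Hcar2, the niacin receptor GPR109A, was at 3.23, 2.08 and 1.41 CPM in OVX-HA and 2.92, 2.68 and 2.59 CPM in OVX-PBS, against 2.71, 1.44 and 3.1 CPM in sham. Its log2 fold change was -0.10 ± 0.358 over sham, and the 95% interval of -0.88 to 0.68 leaves room for a difference in either direction.

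Some further genes with a small p and no overlap belong to no list. Higher in OVX-HA were the serine protease gene Tmprss3 (2.82, 5.85 and 3.38 CPM in OVX-HA, against 1.42, 2.65 and 1.19 CPM in sham) and Pln, the brake on the calcium pump of heart and slow muscle (4.21, 5.65 and 4.36 CPM in OVX-HA, against 3.13, 3.21 and 2.74 CPM in sham). Emid1, Plagl1 and Rpl32l, the last annotated as a processed pseudogene, were also higher with no overlap, by log2 fold changes of 0.52, 0.32 and 0.84. Plagl1, an imprinted zinc finger gene, was the member of this set with a gap to OVX-PBS: 24.1, 25.5 and 23.2 CPM in OVX-HA and 21.6, 19.3 and 21.5 CPM in OVX-PBS, against 19.3, 21.1 and 17.8 CPM in sham. Dmkn and Zbtb7b were lower with no overlap, by log2 fold changes of -0.94 and -0.32. Mgarp and Akr1d1 were also among the genes with the smallest p, and Akr1d1 is a member of the liver list, whose counts include it. Both were at no more than 0.117 CPM in OVX-HA. Sham replicate 1 had them at 30.2 and 35.2 CPM and the other sham libraries at no more than 0.433 CPM, which is the pattern of the adrenal list.

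Leaving out OVX-HA replicate 2 raised the number of genes at an unadjusted p below 0.05 to 780, of which 598 were lower, and 0 passed the adjusted threshold (edgeR). The erythroid list was summed at 20399.6, 63396 and 19929 CPM in OVX-HA, against 18187 to 32815 CPM in sham, and its median was 0.42 with all libraries and -0.44 without OVX-HA replicate 2. The cell cycle list had medians of 0.28 and -0.41, with 0 and 12 of 25 genes lower at p below 0.05, where 207 of 21761 and 598 of 21612 genes were. Tuba1c, a tubulin, was at 54.3, 159 and 50.5 CPM in OVX-HA, against 58.5, 92.3 and 83.8 CPM in sham. Sln, the sarcolipin of muscle, was at 24.7, 39.6 and 24.8 CPM in OVX-HA and 35.6, 38.6 and 38.1 CPM in OVX-PBS, against 36.9, 42.9 and 38.4 CPM in sham. Tmem176b, a membrane protein of myeloid cells, was at 35.9, 46.1 and 34.1 CPM in OVX-HA, against 52.9, 53.3 and 43 CPM in sham. For Sln and Tmem176b replicate 2 was the OVX-HA library nearest to sham.

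**Figure D5:**
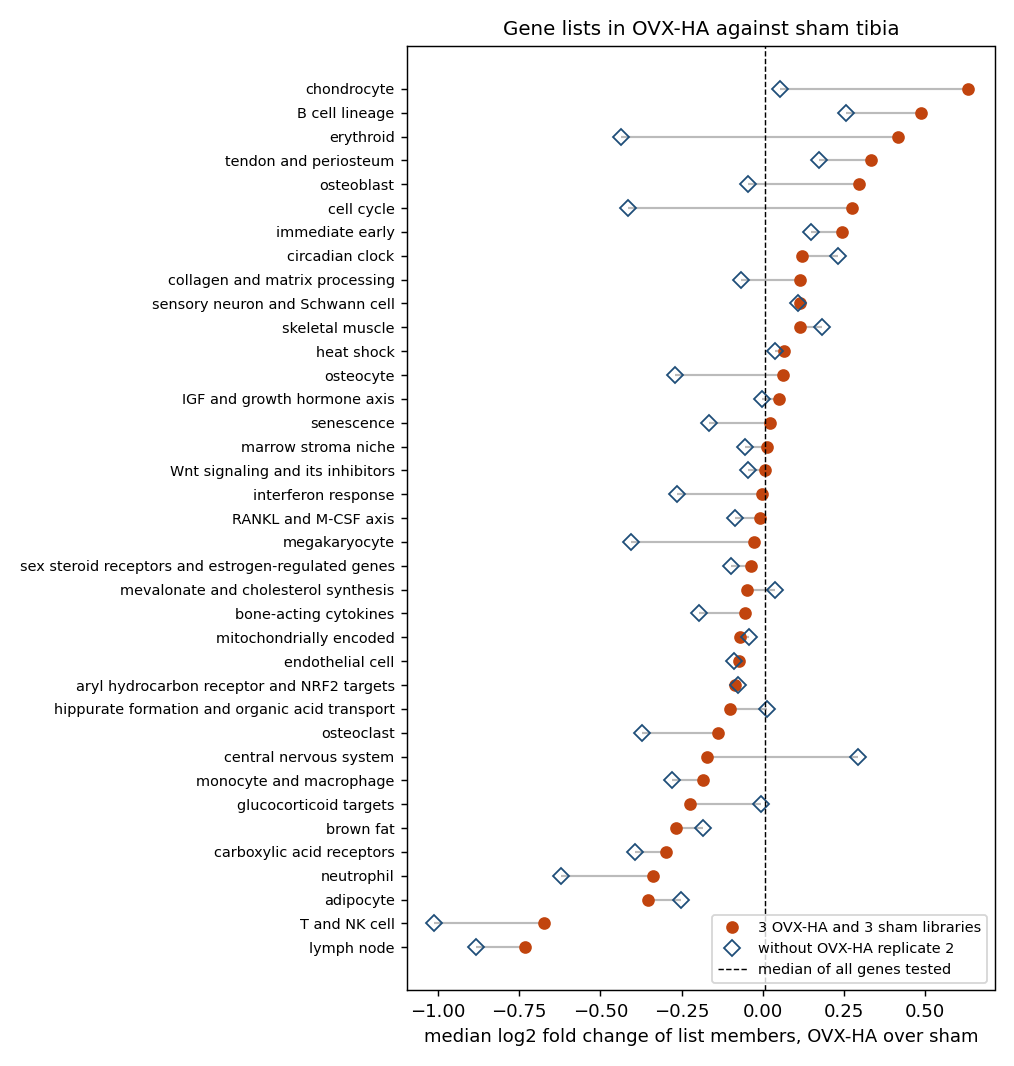
Median log2 fold change of OVX-HA over sham for each gene list except the liver and adrenal lists, with all libraries (filled) and without OVX-HA replicate 2 (open); the dashed line is the median of all genes (0.01). The erythroid, cell cycle, osteoblast and osteocyte lists cross to below 0 without that library, and the B cell lineage and tendon and periosteum lists stay above it.

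Of 25 T and NK cell genes 24 lay below 0, with a median of -0.67, and 1 was lower at an unadjusted p below 0.05 (0.951% of all genes were). This was Cd8b1, a chain of the co-receptor of cytotoxic T cells, at 0.0983 to 0.468 CPM in OVX-HA, against 0.323, 0.507 and 5.08 CPM in sham. Sham replicate 3, the library with lymph node transcripts, was the high one, and without it the list's median was -0.13. Marco, a scavenger receptor of lymph node and tissue macrophages, was at 0.131 to 0.322 CPM in OVX-HA, against 0.226, 0.479 and 27.3 CPM in sham. Of 17 liver genes 16 lay below 0, with a median of -2.74, and 11 were lower at an unadjusted p below 0.05 (0.951% of all genes were). That share is no fair background here, since genes that pass the filter only through libraries where they are high are lower elsewhere by that choice. With at least 1 CPM in 3 libraries 6 liver genes passed the filter, 1 of them lower at p below 0.05, with a median of -0.47. With the compared groups fitted alone, 7 liver genes passed the filter, 2 of them were lower at p below 0.05 and the median was -0.59. Without sham replicate 1 it was 5 of 10 with a median of -1.65, and without sham replicate 2 it was 5 of 11 with a median of -1.03; these are the 2 sham libraries with high Alb. Interferon response genes had a median of -0.00 in OVX-HA against sham and 0.22 in OVX-PBS against sham, with 0 and 1 of 28 at p below 0.05 (1.74% and 2.73% of all genes were). In OVX-HA against OVX-PBS 5 of the 28 were lower at p below 0.05 (0.823% of all genes were), among them Ifit3, an antiviral effector, at 14.1, 11.8 and 11.8 CPM in OVX-HA and 13.8, 17 and 15.2 CPM in OVX-PBS.

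OVX-PBS against sham, which shares the sham libraries, had 0 genes past the adjusted threshold with edgeR and 594 at an unadjusted p below 0.05 (2.73%; 1.44% higher and 1.29% lower), while DESeq2 gave 0 and 684. Its libraries did not overlap for 4.03% of genes with OVX-PBS higher and 3.6% with OVX-PBS lower. Its medians stand beside those of OVX-HA against sham as follows. For the B cell lineage the median was 0.49 in OVX-HA and 0.60 in OVX-PBS, with 7 and 9 of 24 genes higher at p below 0.05 (0.786% and 1.44% of all genes were). For tendon and periosteum it was 0.33 in OVX-HA and 0.34 in OVX-PBS, with 4 and 7 of 19 higher. Among the genes described above by their gap to sham, the log2 differences of OVX-HA from OVX-PBS were -0.01 for Vpreb1 (95% interval -0.83 to 0.80), -0.10 for Col14a1 (-0.37 to 0.17), -0.26 for Il4ra (-0.67 to 0.15) and -0.10 for Fkbp5 (-0.44 to 0.24). The intervals of these 4 hold 0, while those of Angptl8 (-1.98 to -0.26), Lrg1 (-1.27 to -0.19) and Pdk4 (-1.73 to -0.28) lie below it, without adjustment for the number of genes tested. All of these genes were named for a small p in OVX-HA against sham, and OVX-HA against OVX-PBS reuses the same OVX-HA libraries. A low value in those libraries moves both comparisons, so the intervals below 0 are not separate support for a difference.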

How the data were processed

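Polyadenylated RNA of mouse tibia was prepared with a stranded kit and sequenced as single reads on a NextSeq 500, per the labels' protocols. The submitters' processing notes name STAR 2.7.8a and Bowtie2 2.2.5 as well as Partek, CASAVA 1.8.1 and mm10, with no order. Neither the counting tool nor the annotation is given in the sources used here. The authors deposited a table of estimated counts per gene symbol, in which 20.7% of values are not whole (tolerance 0.01), and a log2 table that equals log2(count + 1e-04) minus a constant per library within 0.0055; the deposited log2 values were not used for tests. The counts were rounded. All 14 libraries were fitted with edgeR 4.0.16 (R 4.3.3; filterByExpr, TMM, quasi-likelihood test, group means), since the 5 groups then share an estimate of spread, and p-values were adjusted by Benjamini-Hochberg over 21761 genes. Each group's libraries are named by the labels. Genes named are the 10 per direction with the smallest p, no overlap between groups and at least 2 CPM in 1 group; 6 per direction without OVX-HA replicate 2; the 3 members of each of 38 lists with the smallest p and at least 1 CPM; and 14 fixed genes. Predicted genes, pseudogenes with -ps in the symbol and receptor or immunoglobulin segments were left out of the first 2 sets by their symbols. Rpl32l, annotated as a processed pseudogene, was not caught by this. Acan, Csf1, Dntt, Glyat, Ighm, Jchain, Kera, Mobp, Ms4a1, Pax5, Scx, Siglec15, Slc22a6, Ucp1, Vpreb2 and Vpreb3 fall outside this rule and were picked after their values were seen. The members and lists were chosen with earlier results of these data known. DESeq2 1.42.0, other scalings and filters, a replicate block and left-out libraries were tried as alternatives. The edgeR script was tested on simulated counts. Positions are from GENCODE M21 (mm10), in which 96.4% of the symbols were found, except the windows of Vpreb1 and Vpreb2, which use RefSeq starts.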

Additional observations from a re-analysis of the deposited data

How the results depend on the processing

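The count of genes past the adjusted threshold was 0 for OVX-HA against sham under each alternative run, with edgeR or DESeq2, and the smallest adjusted p over the edgeR alternatives was 0.0615 (without sham replicate 2). The count at an unadjusted p below 0.05 was 378, and 674 with no filter on low counts, 244 with at least 1 CPM in 3 libraries, 176 with the compared groups fitted alone, and 910 with only the libraries that carry central nervous system transcripts. Leaving out 1 library at a time gave 351 to 780 genes: 721, 780 and 583 without OVX-HA replicates 1, 2 and 3, against 351, 561 and 484 without sham replicates 1, 2 and 3. Leaving out OVX-HA replicate 2 and sham replicate 1 together, added after the data were seen, gave 1703 genes and a smallest adjusted p of 0.144. The replicate numbers do not pair the samples: the deviations of same-numbered OVX-HA and sham libraries correlated at 0.54, 0.01 and -0.39 over 17414 genes, and with the replicate number as a block the count was 382. RLE size factors gave 395 genes. The log2 fold changes of some named genes changed direction, none of them past the adjusted threshold, and the cause was not tested. With only the libraries that carry central nervous system transcripts, OVX-HA over sham was -0.077 for Acan, -0.15 for Alpl, -0.024 for Bglap, 0.28 for Mobp, -0.030 for Ms4a1, -0.78 for Sost, -0.083 for Tnfrsf11b, -0.58 for Tuba1c. Without the libraries with lymph node transcripts, OVX-HA over sham was 0.059 for Adipoq, -0.037 for Glyat, 0.12 for Hcar2, -0.11 for Slc22a6, 0.020 for Tnfsf11. With the central nervous system score as covariate, OVX-HA over sham was -0.037 for Alpl, -0.49 for Sost, -0.26 for Tuba1c. With the replicate block, OVX-HA over sham was -0.018 for Slc22a6. Leaving out each replicate in turn, or OVX-HA replicate 2 with sham replicate 1, gave log2 ranges of -0.30 to 0.93 for Acan, -0.59 to 0.055 for Acp5, -0.43 to 0.059 for Adipoq, -0.21 to 0.37 for Alpl, -0.058 to 0.84 for Bglap, -0.063 to 0.74 for Col1a1, -0.60 to 0.077 for Ctsk, -0.0077 to 0.29 for Esr1. For the other genes the ranges were -0.16 to 0.72 for Glyat, -0.48 to 0.14 for Hcar2, -0.76 to 0.43 for Mobp, -0.33 to 0.26 for Ms4a1, -0.32 to 0.21 for Slc22a6, -0.88 to 0.33 for Sost, -0.17 to 0.58 for Tnfrsf11b, -0.82 to 0.20 for Tnfsf11, -0.77 to 0.45 for Tuba1c. Levels under about 1 CPM, such as those of Vpreb2 and Glyat, rest on few counts, and 3 libraries a group with a biological coefficient of variation of 25.0% limit what can pass.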

Other observations

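A library of ovariectomized mice outside the comparison above, OVX-ZA replicate 2, also carried adrenal cortex transcripts, with Hsd3b1 at 24.2 CPM, Cyp21a1 at 18.1 CPM, Star at 33.5 CPM, Cyp11b1 at 13.4 CPM and Cyp11a1 at 7.42 CPM. In sham replicate 1 the same genes were at 566, 485, 326, 293 and 210.3 CPM.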
